A study of Mus musculus with 52 samples.

Results

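Cholesterol synthesis and its control were followed through 30 genes, each found by its symbol in all 4 expression tables of the study, among 56783 distinct gene identifiers, and all 30 were abundant enough to be tested in each table. By role they were 8 genes of the mevalonate pathway, 11 genes of the branch from squalene to cholesterol, 4 genes of the SREBP control system, 4 genes of sterol transport, esterification and oxidation, and 3 genes of the liver X receptor (LXR) arm. The study asked how lipid-laden reactive astrocytes relate to seizure activity, and sequenced RNA from 25 brain and 27 astrocyte libraries of C57BL/6 mice. Brain came from a KA-induced model of temporal lobe epilepsy (a first cohort with 3 untreated and 3 KA libraries), from a CNO-induced epileptic model (3 untreated and 3 CNO libraries), and from a second KA cohort with 3 untreated, 4 KA, 3 APOE knock out plus KA and 3 A2aR knock down plus KA libraries. Astrocytes made 9 groups of 3: wild-type cells left untreated or treated with oleic acid, palmitic acid, neuronal conditional medium or medium of APOE knock out neurons, and APOE knock out cells left untreated or treated with neuronal conditional medium or either acid. The sources used here do not give age, brain region, doses, times, the make-up of the knock out and knock down, or the way the astrocytes were cultured. Titles of all libraries given neuronal medium also carry KA, and those of untreated knock out 3 and knock out palmitic acid 3 carry the word mix, which is not explained.

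Cells build cholesterol from acetyl-CoA. The mevalonate pathway makes isoprenoid units and joins them to farnesyl diphosphate, and the enzymes after it make squalene, close it into lanosterol and trim lanosterol to cholesterol. The genes of these enzymes are switched on by SREBP-2, the product of Srebf2: SCAP carries this factor out of the endoplasmic reticulum when membrane sterol is low, and the INSIG proteins hold it back when sterol is high, whereas the LXR receptors sense oxidised sterols and drive sterol export. In the adult brain, which is largely cut off from the cholesterol of the blood, astrocytes are a main source of cholesterol, and much of it leaves them on apolipoprotein E.

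Promoter sequences from RefSeq (GRCm38.p6), 250 bases before to 50 bases after a gene's start, were found for 26 of the 30 genes. None was found for Sqle, Fdps, Fdft1 or Stard4. The letters CCAAT, the core of a binding site of NF-Y, a factor that works beside SREBP, were searched on both strands. They stood in a promoter of 22 of these 26 genes (84.6%), against 41.06% of 27025 genes with a promoter in the same table. TCACNCCAC, a 9-letter consensus of the sterol regulatory element, was searched on both strands without mismatches, so variants of the element were not counted. It stood in 1 of the 26 genes (3.8%), Hmgcs1, against 1.44% of all genes, and the E-box TCACGTGA stood in none of them, against 1.12%. The 250 bases before the start are shown for 3 genes whose levels the results below turn on: Hmgcs1 on the plus strand (mm10 chr13:119690101-119690350), Mvd on the minus strand (chr8:122443423-122443672) and Ebp, which moved apart from the other enzymes, on the minus strand (chrX:8193513-8193762). Each window lies outside the span of its own gene in the GENCODE M21 annotation, and exons of other genes are not marked in these sequences. All are written 5′ to 3′ toward the gene, with capitals for CCAAT on either strand and for the sterol regulatory element, and these matches do not overlap.
Hmgcs1: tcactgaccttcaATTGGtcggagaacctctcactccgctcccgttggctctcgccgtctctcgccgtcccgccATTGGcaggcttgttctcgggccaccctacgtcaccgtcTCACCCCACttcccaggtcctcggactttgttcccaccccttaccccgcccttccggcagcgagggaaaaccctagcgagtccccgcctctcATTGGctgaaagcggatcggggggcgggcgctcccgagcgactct
Mvd: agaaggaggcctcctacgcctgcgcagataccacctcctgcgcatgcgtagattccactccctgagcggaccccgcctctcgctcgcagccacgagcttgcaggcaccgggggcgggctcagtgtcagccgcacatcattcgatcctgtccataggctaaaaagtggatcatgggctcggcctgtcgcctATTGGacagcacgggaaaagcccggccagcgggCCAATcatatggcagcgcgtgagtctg
Ebp: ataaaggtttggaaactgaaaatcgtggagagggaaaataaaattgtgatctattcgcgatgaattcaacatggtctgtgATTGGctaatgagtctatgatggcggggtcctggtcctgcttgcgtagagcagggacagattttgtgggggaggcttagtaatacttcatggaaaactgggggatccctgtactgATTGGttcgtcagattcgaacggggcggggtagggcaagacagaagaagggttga
Counted from the gene's start, the boxes of Hmgcs1 begin at -237, -176 and -45 and its sterol regulatory element at -137. Those of Mvd begin at -60 and -27, and those of Ebp at -170 and -55. These matches describe the letters only, and no binding was measured.

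Levels are in TPM, a scale corrected for gene length. Depth is known only for the second KA cohort, at 68760648 to 76643829 counts a library. Apoe stood at 5.36 to 118 TPM in knock out astrocytes against 2221 to 5024 TPM in wild type, and at 29.7 to 58.6 TPM in knock out brain with KA against 830 to 1467 TPM in brain with KA alone. Adora2a, the A2aR gene, stood at 1.75 to 2.15 TPM in the libraries labelled knock down and at 1.32 to 2.90 TPM in those with KA alone, so the groups overlap. All 10 astrocyte markers were above 0 TPM in every astrocyte group, but 9 fibroblast and mural cell markers summed to more TPM than they did in each of the 9 groups (7573 to 8280 against 2373 to 2657 TPM in untreated wild type). Untreated library 3 of the first KA cohort stood apart, with 9.01% mitochondrial transcripts against 13.1% to 16.4% in the other 5. No label ties a library to an animal or culture of its own, so the p-values rest on spread among libraries that may be technical. In bulk RNA, fewer cells of a type and less RNA per cell cannot be told apart.

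**Figure D1:**
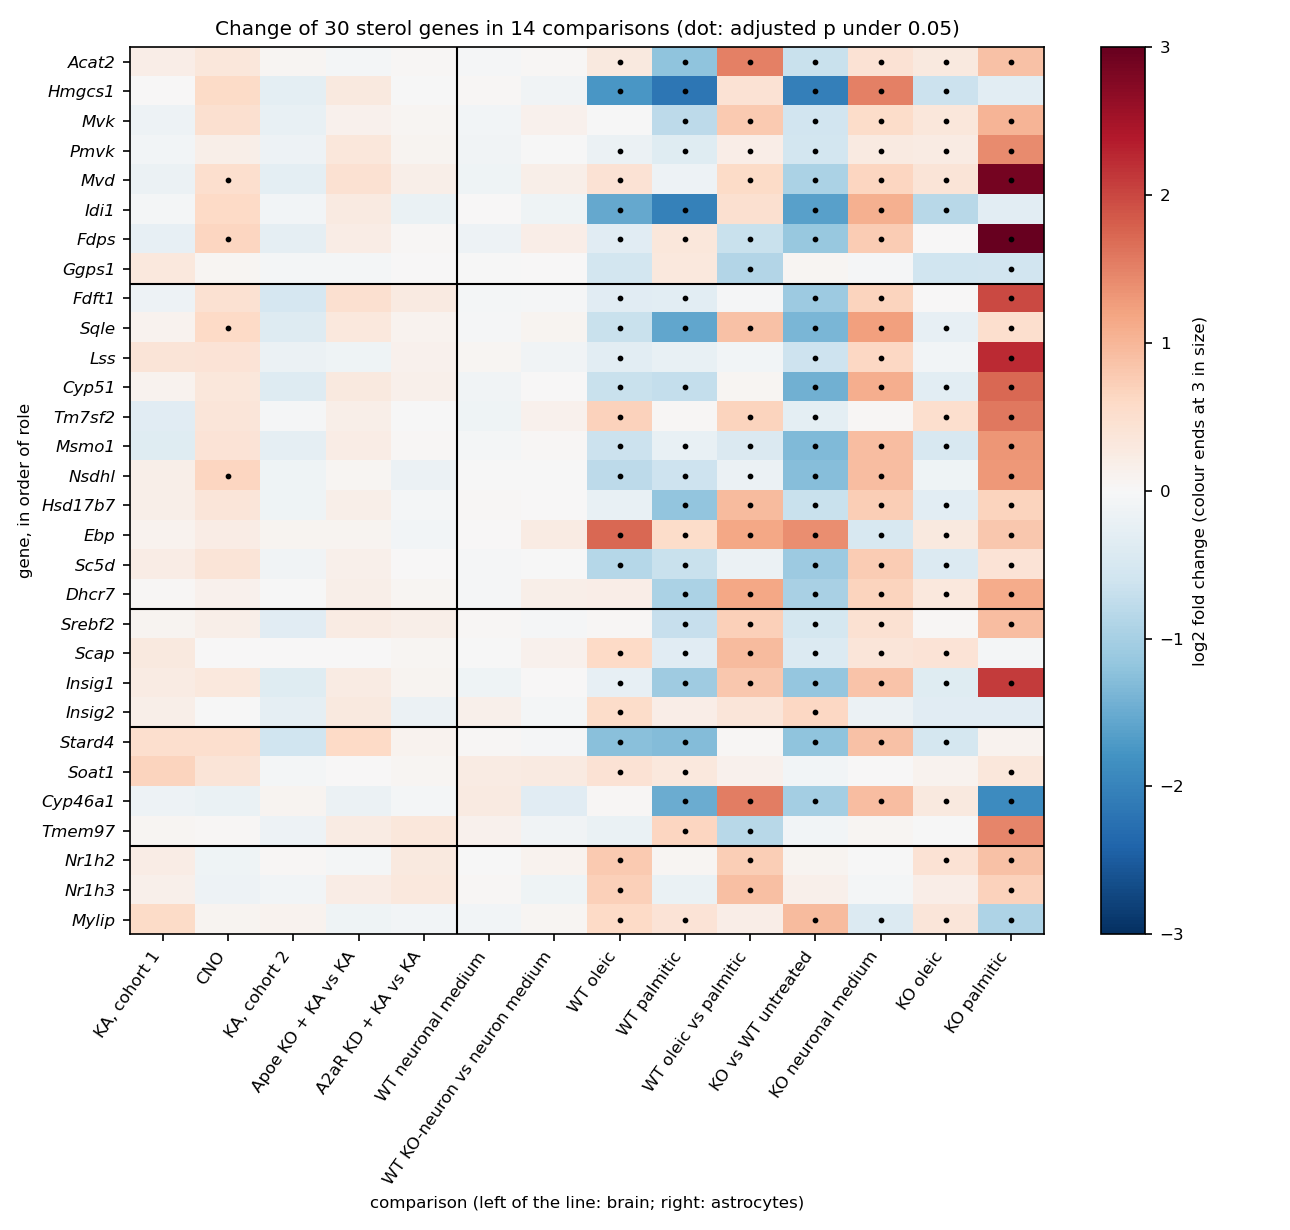
Log2 fold change of each of the 30 genes (vertical axis, in order of role, separated by lines) in 14 comparisons (horizontal axis), coloured from blue (lower) to red (higher); black dots mark an adjusted p under 0.05. Brain columns hold 4 dots, all for CNO, whereas the knock out and fatty acid columns of astrocytes hold 20 to 25 each.

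In the brain of the first KA cohort, none of the 30 genes differed between KA and untreated libraries by limma at an adjusted p under 0.05 (limma called 0.183% of all 15331 genes tested), and 0 had an unadjusted p under 0.05, against 13.5% of all genes. The median log2 fold change of the 30 genes was 0.11, on the log2(TPM + 1) scale used for all TPM tables, which understates the change of low genes, against 0.25 for all genes. The smallest p belonged to Soat1, which esterifies cholesterol for storage, with 8.22, 12.4 and 5.76 TPM untreated and 16.6, 14.9 and 11.3 TPM with KA. The groups overlap, since untreated library 2 lay above KA library 3, and the log2 difference was 0.68 ± 0.30 (SE) with an adjusted p of 0.4. Msmo1, the C4-methylsterol oxidase, had 62.5, 54.2 and 86.5 TPM untreated and 52.6, 43.6 and 58.6 TPM with KA, overlapping at -0.37 ± 0.22 (adjusted p = 0.513). Mylip, an LXR target that marks lipoprotein receptors for destruction, had 15.4, 15.2 and 6 TPM untreated and 19.2, 20.2 and 13.6 TPM with KA, also overlapping, at 0.58 ± 0.37 (adjusted p = 0.536).

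The regulators overlapped too. Srebf2 had 88, 88.7 and 49.9 TPM untreated and 77.2, 73.5 and 81.5 with KA, and Scap had 36.4, 37.4 and 20.9 TPM untreated and 38, 38.8 and 37 TPM with KA. Insig1 had 44.4, 37.2 and 19.8 TPM untreated and 38.6, 32.1 and 44.9 with KA, and Insig2 had 51.7, 45.6 and 20.2 TPM untreated and 38, 36.9 and 49.4 TPM with KA. In all 4 the lowest value was that of untreated library 3, and without that library the median of the 30 genes was -0.02 against 0.06 for all genes. With median-ratio scaling it was -0.18 against -0.02. The summed level of 12 microglia markers was 619 to 738 TPM untreated and 1620.05 to 4089 TPM with KA. Astrocyte markers summed to 1979 to 2935 TPM untreated and 3394 to 5031 TPM with KA, and the part of these signals in the values was not tested.

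In the CNO model, 4 synthesis genes rose and none of the 30 fell, against 3.46% of all 15453 genes called higher and 3.7% called in either direction. They were Fdps and Mvd of the mevalonate pathway and Sqle and Nsdhl of the later branch. All 8 mevalonate genes and all 11 genes from squalene to cholesterol had a positive log2 fold change, with medians of 0.49 and 0.40, against 0.04 for all genes. The SREBP control genes stood at a median of 0.09 and the LXR arm at -0.12, and none of these 7 passed the test.

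Fdps, which makes farnesyl diphosphate, had 84.4, 88.4 and 74 TPM untreated and 125, 153 and 111 TPM with CNO. All CNO libraries lay above all untreated ones, and the log2 fold change was 0.64 ± 0.13 (SE) with an adjusted p of 0.0413. Mvd, the mevalonate diphosphate decarboxylase, had 22.4, 19.9 and 21.7 TPM untreated and 30.2, 32.1 and 28.9 TPM with CNO, without overlap (0.49 ± 0.10, adjusted p = 0.0357). Sqle, the squalene epoxidase that opens the sterol branch to oxygen, had 44.6, 38 and 38.2 TPM untreated and 54.3, 68.5 and 61.7 TPM with CNO. Here the groups were again apart, at 0.60 ± 0.11 (adjusted p = 0.0332). Nsdhl, a sterol dehydrogenase on the X chromosome that helps to remove the C4 methyl groups, had 21.7, 16.7 and 17.5 TPM untreated and 28.4, 29.5 and 30.1 TPM with CNO, without overlap (0.64 ± 0.12, adjusted p = 0.0281).

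The regulators of the pathway did not pass the test in the CNO model. Srebf2 had 101, 87 and 94.2 TPM untreated and 103, 109 and 105 TPM with CNO, and Scap had 41.6, 38.5 and 41.3 TPM untreated and 40.2, 40.7 and 41.8 TPM with CNO. Insig1, a target of SREBP-2 that restrains it, had 58.7, 40.5 and 56.4 TPM untreated and 60.5, 62.6 and 69.2 TPM with CNO, and Insig2 had 46.4, 34.4 and 47.7 TPM untreated and 44.6, 40.1 and 41.5 TPM with CNO. In Srebf2 and Insig1 every CNO library lay above every untreated one, by 0.17 and 0.32 log2, whereas the groups overlapped in Scap and Insig2. At an unadjusted p under 0.05, 16 of the 30 genes were higher and 0 lower, against 12.3% of all genes higher and 16.1% in either direction.

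The 4 calls lay close to the threshold. Same-numbered CNO and untreated libraries deviated together, and once that number entered the fit as a replicate block 6 genes rose, the same 4 with Fdft1, the squalene synthase (0.45 ± 0.08, adjusted p = 0.0258), and Mvk, the mevalonate kinase (0.48 ± 0.09, adjusted p = 0.0333), against 4.94% of all genes called higher in that fit. Without untreated library 1 the count was 2, and without untreated 2, untreated 3, CNO 2 or CNO 3 it was 0, with 12 to 19 of the 30 genes at an unadjusted p under 0.05 in these fits, against 11.1% to 17.2% of all genes. All 12 microglia markers were higher with CNO (summed level 577 to 665 TPM untreated and 1485 to 1869 TPM with CNO), as were 4 of 10 astrocyte markers (2792 to 3303 and 4895 to 5128 TPM). The sums of 12 oligodendrocyte markers overlapped at 2178 to 4166 and 2418 to 3418 TPM. The part of these cell type signals in the result was not tested.

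**Figure D2:**
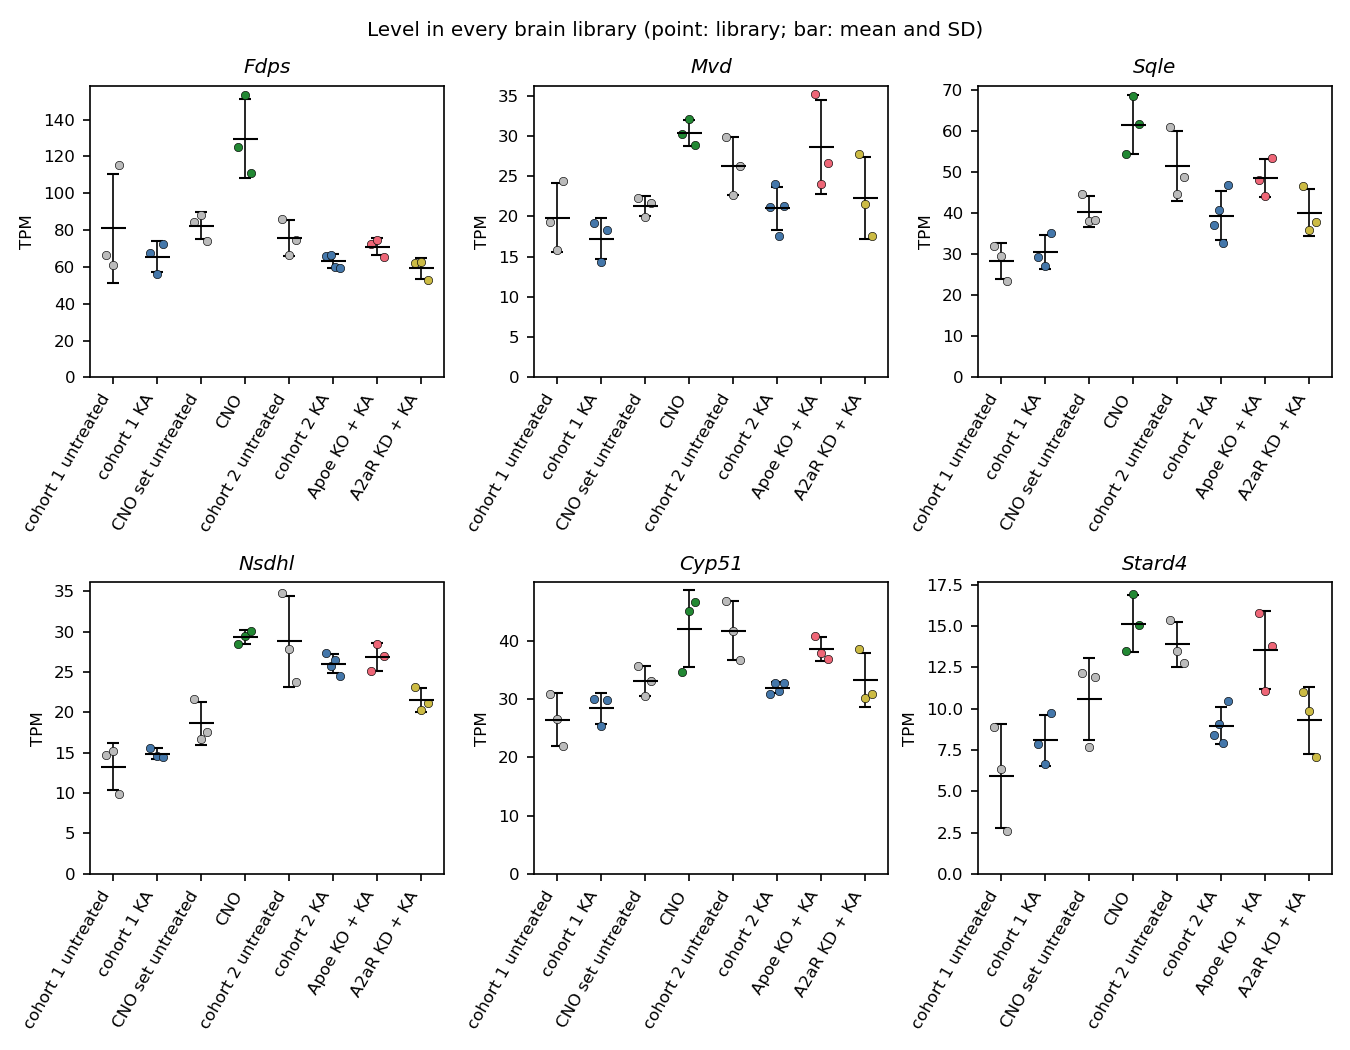
TPM (vertical axis, from 0) of 6 genes in every brain library, by group on the horizontal axis; points are libraries and bars are mean and SD (n = 3, or 4 for cohort 2 KA). Fdps, Mvd, Sqle and Nsdhl lie higher in each CNO library than in each untreated library of that set, and Stard4 and Cyp51 lie lower in all 4 cohort 2 KA libraries than in the 3 untreated ones.

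Of 27 further genes around the pathway (7 of sterol regulation, 12 of sterol handling and 8 that use isoprenoids), 0 of those tested passed in any of the 5 brain comparisons, by limma in the first cohort and CNO model and by edgeR in the second cohort. Of all genes, 0.0386% to 3.7% passed in these comparisons. At an unadjusted p under 0.05 there were 0 to 5 of the further genes in a comparison, against 6.72% to 16.1% of all genes.

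In the second KA cohort, which was deposited as counts, none of the 30 genes passed edgeR's quasi-likelihood test between KA and untreated brain, and 0 passed DESeq2 (edgeR called 0.0558% of 23318 genes). At an unadjusted p under 0.05, 9 were lower and 0 higher, against 3.21% of all genes lower and 6.72% in either direction, and the median log2 fold change of the 30 was -0.13 against 0.00 for all genes. Cyp51, the lanosterol demethylase, had 46.8, 41.7 and 36.6 TPM untreated and 30.8, 32.8, 31.4 and 32.8 TPM with KA. The 4 KA libraries lay below the 3 untreated ones, at -0.38 ± 0.10 (SE) with an adjusted p of 0.457. Stard4, a carrier of cholesterol between membranes, had 15.4, 13.5 and 12.8 TPM untreated and 8.4, 9.08, 7.95 and 10.5 TPM with KA, also apart (-0.59 ± 0.16, adjusted p = 0.482). Insig1 had 74.9, 66.9 and 69.6 TPM untreated and 47.3, 65, 51.9 and 51.9 TPM with KA, again without overlap (-0.36 ± 0.10, adjusted p = 0.539).

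Srebf2 had 119, 97.8 and 105 TPM untreated and 93.4, 67.1, 79.8 and 95.8 with KA, with the KA libraries below. Scap had 52.9, 54.6 and 58.3 TPM untreated and 49.8, 52.7, 56.7 and 59 TPM with KA, and Insig2 had 42.4, 49.2 and 41.2 TPM untreated and 31.7, 38.8, 40.4 and 36.8 TPM with KA. Scap overlapped between the groups, whereas every KA library lay below every untreated one for Insig2. The untreated brains of this cohort read as female by transcripts (Xist at 122 to 145 TPM, the Y-linked Ddx3y at or under 0.40 TPM) and the KA brains as male (Xist at or under 0.272 TPM, Ddx3y at 25.9 to 30.4 TPM), so sex and KA cannot be told apart here. All 12 microglia markers had a positive log2 fold change with KA, 10 of them at an unadjusted p under 0.05 (summed level 549.8 to 647 TPM untreated and 703 to 1193 TPM with KA), and their part was not tested.

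APOE knock out brain with KA did not differ from brain with KA alone in any of the 30 genes by edgeR's or DESeq2's adjusted p (edgeR called 0.112% of all genes). At an unadjusted p under 0.05, 9 genes were higher and 0 lower, against 4.06% of all genes higher and 9.33% in either direction, and the median was 0.20 against -0.01 for all genes. Stard4 had 15.8, 11 and 13.8 TPM in the knock out with KA, above all 4 KA values given before (0.61 ± 0.16, adjusted p = 0.28). Pmvk, the phosphomevalonate kinase, had 72.6, 62.5 and 64.1 TPM against 49, 47.5, 59.2 and 53.1 TPM, likewise above (0.35 ± 0.11, adjusted p = 0.346). Cyp51 had 40.9, 37.9 and 36.8 TPM, also above the KA libraries (0.30 ± 0.10, adjusted p = 0.391). Because this comparison and the one before share the 4 KA libraries, low values in those libraries enter both with opposite sign. Among the regulators Srebf2 had 97.1, 98.2 and 95.6 TPM, Insig1 66.4, 57.3 and 65.2 TPM, Insig2 46, 46 and 37.9 TPM and Scap 60.4, 56.1 and 49.3 TPM, so Insig1, Insig2 and Scap overlapped the KA libraries while the lowest Srebf2 value, in library 3, lay just under the highest KA value. Fibroblast and mural markers summed to 161 to 187 TPM against 122 to 135 TPM with KA alone. Microglia markers summed to 660.1 to 705 against 703 to 1193 TPM, with a negative log2 fold change in all 12 and 5 at an unadjusted p under 0.05, and the part of both lists was not tested.

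Brain labelled A2aR knock down plus KA differed from KA brain in none of the 30 genes by edgeR or DESeq2 (edgeR called 0.0386% of all genes), with 1 gene at an unadjusted p under 0.05, against 9.25% of all genes, and a median of 0.05 against -0.01 for all genes. Tmem97, a sterol-responsive membrane protein, had 21.2, 17.6 and 18.4 TPM against 17, 19.7, 13.7 and 13.2 TPM with KA (0.35 ± 0.15, adjusted p = 0.507). Nr1h2, which encodes LXR beta, had 41.8, 59.3 and 57.8 TPM against 53, 54.1, 37.8 and 59.4 TPM (0.29 ± 0.15, adjusted p = 0.58). Idi1, the isomerase of the isoprenoid units, had 31, 22.8 and 25 TPM against 28.8, 27, 35.3 and 37.1 TPM (-0.21 ± 0.13, adjusted p = 0.665). All 3 genes overlapped between the groups. The fold changes come from edgeR on the counts and need not match the TPM levels: mean Nr1h2 was 53.0 against 51.1 TPM. Mean summed TPM was 377 against 394 for the mevalonate pathway and 354 against 368 from squalene to cholesterol. It was 228 against 230 for SREBP control, 192 against 206 for transport, esterification and oxidation, and 70.8 against 69.8 for the LXR arm. Srebf2 had 91.5, 95.6 and 88.3 TPM, Insig1 58.9, 50.4 and 48.4 TPM, Insig2 35.1, 32.4 and 29.5 TPM and Scap 48.7, 52.5 and 52.8 TPM in the knock down, all within or overlapping the range of the KA libraries.

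In untreated wild-type astrocytes the 30 genes ranged from 3.3 TPM for Mylip to 234 TPM for Hmgcs1, the HMG-CoA synthase at the head of the pathway, followed by Fdps at 144, Msmo1 at 139 and Sqle at 131 TPM (means, n = 3). Neuronal medium changed none of them in wild-type cells by limma (limma called 0.0371% of 16161 genes), with 1 at an unadjusted p under 0.05, against 6.38% of all genes, and a median of -0.02 against 0.03 for all genes. The enzymes stayed at nearly the untreated level: the 19 synthesis genes summed to 1203 to 1273 TPM untreated, 1167 to 1221 TPM with neuronal medium and 1161 to 1249 TPM with medium from APOE knock out neurons. Cyp46a1, which makes 24-hydroxycholesterol, had 18.9, 19.7 and 21 TPM untreated and 26.1, 24.2 and 22.7 TPM with neuronal medium (0.28 ± 0.11, adjusted p = 0.653). Soat1 had 40.7, 35.9 and 47.8 TPM untreated and 52.3, 47.1 and 46.8 TPM with neuronal medium (0.23 ± 0.12, adjusted p = 0.796). Tmem97 had 36.9, 34.6 and 36.6 TPM untreated and 38.2, 41.5 and 39.5 TPM with neuronal medium (0.14 ± 0.08, adjusted p = 0.885). Libraries with neuronal medium lay above the untreated ones for Cyp46a1 and Tmem97, and Soat1 overlapped.

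Medium from APOE knock out neurons did not differ from neuronal medium in any of the 30 genes in wild-type astrocytes by limma (limma called 1.42% of all genes), with 3 at an unadjusted p under 0.05, against 12.9% of all genes. Cyp46a1 had 18.6, 19.7 and 18.2 TPM with it, below the values with neuronal medium just given (-0.35 ± 0.11, adjusted p = 0.156). Ebp, the sterol isomerase encoded on the X chromosome, had 30.2, 26.2 and 28.4 TPM against 24.4, 20.9 and 26.2 TPM (0.24 ± 0.10, adjusted p = 0.283). Soat1 had 60.3, 60.9 and 55.2 TPM, above the values with neuronal medium (0.27 ± 0.12, adjusted p = 0.318). The regulators kept to narrow ranges over these 3 groups. Srebf2 had 88, 97 and 89 TPM untreated, 94.8, 92.5 and 92.8 TPM with neuronal medium and 86.4, 92.8 and 96.3 TPM with that of knock out neurons. Scap had 83.1, 100.2 and 90.8, then 92.1, 85.7 and 91.8, then 94.1, 99.3 and 100.2 TPM in the same order. Insig1 had 106, 107 and 94.5, then 89.9, 94.6 and 96.7, then 93, 94.4 and 96.6 TPM, and Insig2 had 45.4, 50.7 and 56.3, then 58.5, 53.3 and 56.4, then 56.4, 55.8 and 49.8 TPM.

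Untreated APOE knock out astrocytes held less of nearly every synthesis transcript than wild type. Of the 30 genes, 22 were lower, 3 were higher and 5 did not pass limma's test, against 21.1% of all 16161 genes called lower and 23.9% called higher (44.9% in all). The median was -0.67 log2 against 0.05 for all genes. In the mevalonate pathway 7 of 8 genes were lower, with Ggps1, which makes geranylgeranyl diphosphate, not called (0.06 ± 0.25, adjusted p = 0.881), and from squalene to cholesterol 10 of 11 were lower, with Ebp alone higher. The 19 enzymes summed to 575 to 593 TPM, against 1203 to 1273 TPM in wild type.

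Sqle had 133, 131 and 128 TPM in wild type and 51.3, 47.8 and 52 TPM in the knock out, a log2 fold change of -1.36 ± 0.06 (SE) with an adjusted p of 5.88e-14. Nsdhl had 34.9, 35.3 and 34 TPM in wild type and 13.3, 13.9 and 14 TPM in the knock out (-1.28 ± 0.06, adjusted p = 3.25e-13). Msmo1 had 146, 135 and 136 TPM in wild type and 56, 55.4 and 53.8 TPM in the knock out (-1.32 ± 0.07, adjusted p = 6.59e-13). In these 3 genes, whose enzymes oxidise squalene and remove methyl groups from lanosterol, the knock out libraries were tightly grouped far below wild type. Fdft1, which joins farnesyl units to squalene, had 56.6, 60.6 and 55.8 TPM in wild type and 27.2, 25.4 and 26.5 TPM in the knock out (-1.10 ± 0.07, adjusted p = 1.79e-11). Cyp51 had 78.1, 72.9 and 80.8 TPM in wild type and 27.5, 30.3 and 25.6 TPM in the knock out (-1.44 ± 0.10, adjusted p = 3.76e-11). Ebp went the other way, with 23.8, 26.2 and 21.1 TPM in wild type and 62, 62.6 and 67.1 TPM in the knock out (1.40 ± 0.10, adjusted p = 9.45e-11). No library of either genotype overlapped the other in any of these 6 genes. The largest fall among the 30 was that of Hmgcs1, from 243, 221 and 237 TPM to 57, 54.9 and 56 TPM (-2.04 ± 0.20, adjusted p = 2.31e-08).

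The control genes of SREBP split. Insig1 fell from 106, 107 and 94.5 TPM to 47, 45.7 and 43.2 TPM (-1.16 ± 0.10, adjusted p = 1.33e-09). Srebf2 fell from 88, 97 and 89 TPM to 63.5, 61.8 and 63.4 TPM (-0.53 ± 0.07, adjusted p = 2.12e-06). Scap fell from 83.1, 100.2 and 90.8 TPM to 68.3, 66.9 and 70.9 TPM (-0.40 ± 0.08, adjusted p = 0.000394). Insig2, whose transcript is known to be controlled apart from SREBP, rose from 45.4, 50.7 and 56.3 TPM to 91.4, 67.7 and 77.1 TPM (0.62 ± 0.16, adjusted p = 0.00316). Stard4 and Cyp46a1 were lower, with log2 fold changes of -1.20 and -1.01, and Mylip rose by 0.94, while both LXR genes, Soat1 and Tmem97 did not pass the test.

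Among 7 other genes of sterol regulation, 1 was higher and 3 lower in the knock out, against 23.9% and 21.1% of all genes. Erlin2, part of the machinery that degrades sterol-controlled proteins, had a mean of 117 TPM against 184 TPM (-0.65 ± 0.07, adjusted p = 1.72e-07). Srebf1, which encodes SREBP-1, the factor of fatty acid synthesis, had 51.7 against 71.7 TPM (-0.46 ± 0.07, adjusted p = 1.41e-05). Of 12 other genes of sterol handling 3 were higher and 1 was lower, Nceh1, a cholesterol ester hydrolase, at -0.76 log2, and of 8 genes that use isoprenoids 2 were higher and 1 lower.

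All 10 astrocyte markers were lower in the untreated knock out too, summing to 561 to 579.9 TPM against 2373 to 2657 TPM. Microglia markers summed to 458 to 487 against 537 to 596 TPM, and fibroblast and mural markers to 6231 to 6341 against 7573 to 8279.9 TPM. Oligodendrocyte markers summed to 62.36 to 66.04 against 112.79 to 131.23 TPM, and choroid plexus markers to 6.45 to 7.52 against 34.83 to 47.61 TPM. The choroid plexus sums were 4.99 to 18.05 TPM in the oleic and palmitic acid groups of both genotypes. In the groups given medium of neurons they were 28.83 to 49.55 TPM. Xist stood at 2.79 to 3.81 TPM against 30.7 to 36.8 TPM in wild type, and Ddx3y at 31.3 to 33.5 against 14.9 to 19.1 TPM, so these sex-linked transcripts differed with genotype too. The part of cell type signals and sex in the result was not tested.

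**Figure D3:**
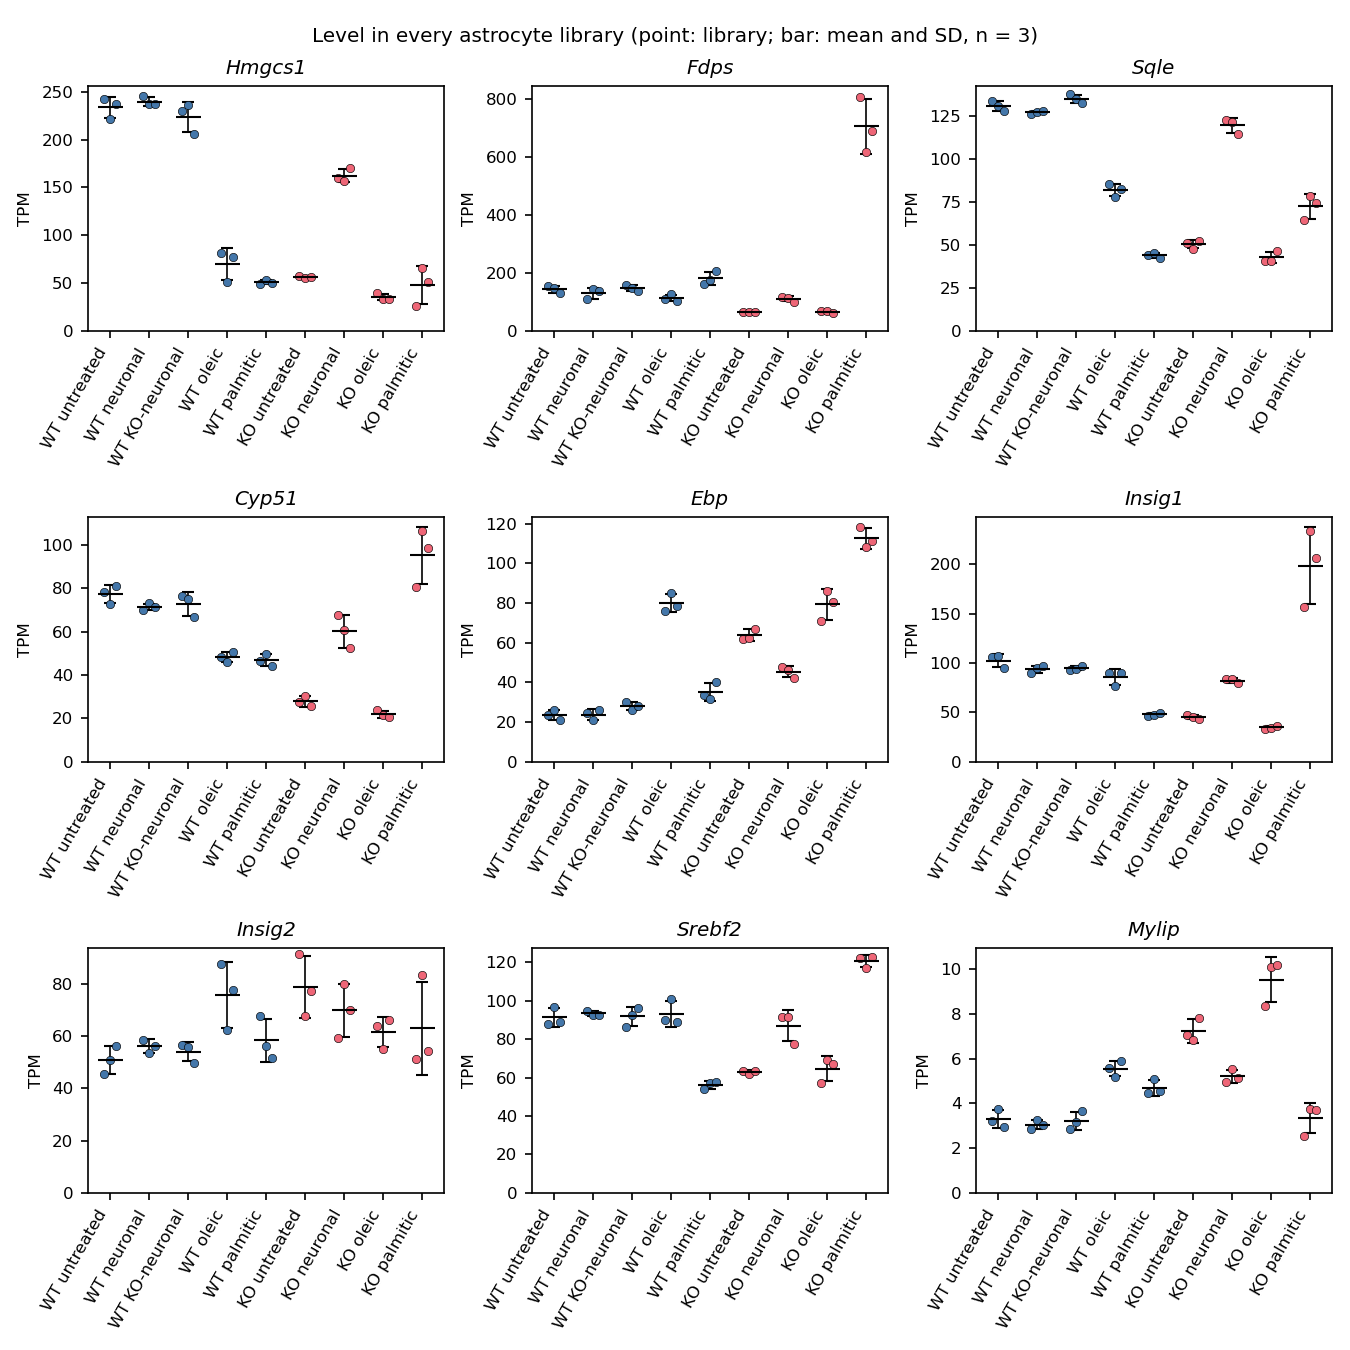
TPM (vertical axis, from 0) of 9 genes in every astrocyte library, by group on the horizontal axis (blue: wild type, red: APOE knock out); points are libraries and bars are mean and SD (n = 3). Hmgcs1, Sqle, Cyp51 and Insig1 are lower in untreated knock out than in untreated wild-type libraries, rise with neuronal medium in the knock out, and Fdps is at 619.5 to 809 TPM in the knock out libraries with palmitic acid.

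Most of the pathway was higher with neuronal medium in knock out astrocytes. Of the 30 genes, 21 rose, 2 fell and 7 did not pass, against 18.7% of all genes called higher and 12.6% called lower (31.2% in all), and the median was 0.63 log2 against 0.00 for all genes. In the mevalonate pathway 7 of 8 rose, from squalene to cholesterol 9 of 11 rose and Ebp fell, and 3 of 4 SREBP control genes rose. This comparison and that of the untreated genotypes use the same untreated knock out libraries, so low values there would enter both with opposite sign. The 19 enzymes summed to 977 to 1022 TPM, between the untreated knock out and wild type.

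Sqle had 123, 121 and 114 TPM with neuronal medium, against the untreated values given above (1.23 ± 0.06, adjusted p = 1.58e-12). Nsdhl had 26.9, 29.1 and 25.4 TPM (0.93 ± 0.06, adjusted p = 2.24e-10). Msmo1 had 106, 107 and 102 TPM (0.92 ± 0.07, adjusted p = 8.5e-10). Each lay above every untreated knock out library and below every untreated wild-type library. Cyp51 had 67.6, 60.5 and 52.5 TPM (1.08 ± 0.10, adjusted p = 1.07e-08), Fdft1 had 43.5, 43.5 and 39.7 TPM (0.66 ± 0.07, adjusted p = 1.55e-07) and Insig1 had 83.7, 83.3 and 79.8 TPM (0.85 ± 0.10, adjusted p = 3.7e-07). These 3 were also apart from the untreated knock out. Srebf2 rose to 91.3, 91.7 and 77.6 TPM (0.46 ± 0.07, adjusted p = 2.82e-05) and Scap to 89.6, 89.4 and 87.8 TPM (0.37 ± 0.08, adjusted p = 0.00146). Insig2 had 59.4, 79.9 and 70.03 TPM and did not pass the test (-0.17 ± 0.16, adjusted p = 0.468).

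The change with neuronal medium differed between the genotypes in 21 of the 30 genes by limma's interaction term, 20 with a higher and 1 with a lower change in the knock out, against 11.6% and 6.95% of all genes (18.5% in all). The difference was 1.27 ± 0.09 for Sqle, 1.20 ± 0.14 for Cyp51, 0.97 ± 0.10 for Msmo1 and 0.97 ± 0.13 for Insig1 (adjusted p at most 1.6e-05 in these 4). Among other sterol regulation genes 3 of 7 rose in the knock out with this medium, against 18.7% of all genes. Srebf1 was one of them, at 0.72 log2, and Erlin2 another, at 0.50. The 10 astrocyte markers also rose with neuronal medium in the knock out, to a sum of 1349.8 to 1452 TPM, while microglia markers summed to 339 to 345 against 458 to 487 TPM. Choroid plexus markers summed to 28.83 to 41.27 against 6.45 to 7.52 TPM untreated, and oligodendrocyte markers to 126.93 to 133.59 against 62.36 to 66.04 TPM. Xist stood at 7.12 to 8.55 against 2.79 to 3.81 TPM, and Ddx3y at 22.86 to 30.97 against 31.31 to 33.46 TPM. The part of these signals in the result was not tested.

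Oleic acid, a monounsaturated fatty acid, moved the genes of wild-type astrocytes both ways. Of the 30 genes, 10 were higher, 13 lower and 7 not called, against 31.2% of all genes higher and 28.6% lower (59.8% in all). The synthesis enzymes were mostly lower: 4 of 8 mevalonate genes and 7 of 11 later genes fell, with Acat2 and Mvd higher in the former and Ebp and Tm7sf2 in the latter. All 3 genes of the LXR arm rose. The 19 enzymes summed to 864 to 903 TPM, below every untreated library.

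Ebp had 76, 85.1 and 78.6 TPM with oleic acid, above the untreated 23.8, 26.2 and 21.1 TPM (1.71 ± 0.10, adjusted p = 4.91e-12). Nsdhl had 19.2, 20.2 and 19.9 TPM with oleic acid (-0.79 ± 0.06, adjusted p = 1.37e-09). Sqle had 85.3, 77.9 and 82.4 TPM (-0.67 ± 0.06, adjusted p = 8.21e-09). Both dehydrogenase and epoxidase lay below all untreated libraries. Msmo1 had 91.1, 80.9 and 92.6 TPM (-0.65 ± 0.07, adjusted p = 6.12e-08). Stard4 had 6.89, 4.67 and 7.37 TPM against 16.9, 15.9 and 15.9 TPM untreated (-1.26 ± 0.14, adjusted p = 1.23e-07), and Nr1h2 had 102, 119 and 105 against 59.5, 65.2 and 62.8 TPM (0.78 ± 0.07, adjusted p = 3.4e-09). In each the oleic acid and untreated libraries were apart. Scap rose to 126, 155 and 135 TPM (0.59 ± 0.08, adjusted p = 3.06e-06) and Insig2 to 87.5, 62.4 and 77.5 TPM (0.56 ± 0.16, adjusted p = 0.00484). Insig1 fell to 90.3, 76.8 and 90.1 TPM (-0.26 ± 0.10, adjusted p = 0.0246), and Srebf2, at 89.9, 101 and 88.9 TPM, did not pass the test (0.03 ± 0.07, adjusted p = 0.741).

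In knock out astrocytes oleic acid raised 11 of the 30 genes and lowered 9, against 21.7% and 20.1% of all genes (41.8% in all). The median was 0.02 log2 against -0.03 for all genes, and the 19 enzymes summed to 540 to 563 TPM, just under the untreated knock out. Msmo1 had 40.7, 36.6 and 39.5 TPM against 56, 55.4 and 53.8 TPM untreated (-0.49 ± 0.07, adjusted p = 1.5e-05). Nr1h2 had 85, 91.1 and 92.8 against 61, 70.1 and 66.4 TPM (0.44 ± 0.07, adjusted p = 4.07e-05). Scap had 79.8, 99.1 and 98.6 against 68.3, 66.9 and 70.9 TPM (0.42 ± 0.08, adjusted p = 0.000516). So the LXR beta gene and Scap were higher with oleic acid in both genotypes, and Msmo1 lower. Acat2, which condenses acetyl-CoA in the cytosol, had 30, 29.4 and 29.8 against 25.6, 23.1 and 23.4 TPM (0.30 ± 0.06, adjusted p = 0.00082). Tm7sf2, a sterol reductase, had 20.1, 25.9 and 24.6 against 17, 15.7 and 15.8 TPM (0.51 ± 0.12, adjusted p = 0.00218), and Mvk had 30.9, 36.1 and 33.5 against 25, 26.5 and 26.8 TPM (0.35 ± 0.09, adjusted p = 0.00377). The call of Mvk was lost with length and GC trends removed (0.09, adjusted p = 0.388). Larger falls were those of Idi1, to 10.4, 10.3 and 10.1 from 19.8, 19 and 18.8 TPM (-0.84 ± 0.30, adjusted p = 0.0284), and Hmgcs1, to 39.1, 33.3 and 33.8 from 57, 54.9 and 56 TPM (-0.65 ± 0.20, adjusted p = 0.0141), both without overlap. Insig1 fell to 33.3, 34.4 and 36.5 TPM (-0.37 ± 0.10, adjusted p = 0.00392). Insig2, at 63.8, 55.1 and 66.1 TPM (-0.34 ± 0.16, adjusted p = 0.0913), and Srebf2, at 57.4, 69.4 and 67.2 TPM (0.04 ± 0.07, adjusted p = 0.713), did not pass.

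The oleic acid change differed between genotypes in 10 of the 30 genes by limma's interaction term, near the share of all genes called (29.6%). The change in the knock out was higher in 7 and lower in 3 of them, against 13.8% and 15.8% of all genes. It was -1.41 ± 0.14 for Ebp, which rose less in the knock out, 0.66 ± 0.09 for Nsdhl, 1.10 ± 0.28 for Hmgcs1 and -0.90 ± 0.23 for Insig2 (adjusted p at most 0.00417 in these 4). Oleic acid changes went with base composition: over the 30 genes, all read from the same libraries, Spearman's rho between log2 fold change and transcript GC content was 0.656 in wild type and 0.831 in the knock out, against 0.467 and 0.504 over all genes. With length and GC trends removed, the wild-type count was 7 higher and 16 lower, and the knock out count 6 higher and 6 lower. Without knock out oleic acid library 2 or 3 the knock out count was 7 higher and 7 lower.

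Of the other sterol handling genes, 7 of 12 were higher and 2 lower with oleic acid in wild type and 4 higher and 0 lower in the knock out. Of all genes, 31.2% were higher and 28.6% lower in wild type, and 21.7% and 20.1% in the knock out. Lipa, the lysosomal lipase that frees cholesterol from its esters, rose by 1.20 log2 in wild type and 0.60 in the knock out, and Npc2, which moves cholesterol out of lysosomes, by 0.62 and 0.51. Srebf1 was lower in wild type, at -0.94 log2. Dhdds, which makes dolichol chains from isoprenoids, rose by 0.49 in the knock out. Microglia markers summed to 964 to 1075 TPM with oleic acid against 537 to 596 TPM in wild type, and to 1245 to 1369.6 against 458 to 487 TPM in the knock out. Astrocyte markers summed to 1258 to 1293 TPM in wild type with oleic acid, where 9 of 10 fell. Fibroblast and mural markers summed to 3795 to 4271 against 7573 to 8279.9 TPM in wild type, where 7 of 9 fell, and to 4299.6 to 5002 against 6231 to 6341 TPM in the knock out, where 4 fell and 1 rose. Choroid plexus markers summed to 8.89 to 12.14 against 34.83 to 47.61 TPM in wild type, and to 10.45 to 18.05 against 6.45 to 7.52 TPM in the knock out. Wild-type libraries with oleic acid had Ddx3y at 0.52 to 1.35 TPM against 14.9 to 19.1 TPM untreated, and knock out libraries at 14.3 to 15.2 against 31.3 to 33.5 TPM. Xist was lower too, at 6.57 to 15.03 against 30.7 to 36.8 TPM in wild type and at 2.12 to 2.72 against 2.79 to 3.81 TPM in the knock out. The mitochondrial share was 2.96% to 3.98% against 5.52% to 6.83% in wild type and 4.04% to 4.53% against 6.41% to 6.64% in the knock out. The part of these signals in the result was not tested.

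Palmitic acid, a saturated fatty acid, lowered the pathway in wild-type astrocytes. Of the 30 genes, 18 fell, 5 rose and 7 did not pass, against 33.1% of all genes lower and 26.8% higher (59.8% in all). The fallen were 5 of 8 mevalonate genes, 8 of 11 later genes, 3 of 4 SREBP control genes, Stard4 and Cyp46a1, and the raised were Fdps, Ebp, Soat1, Tmem97 and Mylip. The median was -0.36 log2 against -0.08 for all genes, and the 19 enzymes summed to 764 to 814 TPM.

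Sqle had 44.2, 45.4 and 42.5 TPM with palmitic acid, below even the untreated knock out libraries (-1.55 ± 0.06, adjusted p = 5.03e-15). Acat2 had 16.4, 14.7 and 17.3 against 39.7, 38.3 and 37.9 TPM untreated (-1.21 ± 0.06, adjusted p = 3.56e-13). Hmgcs1 had 49.5, 53.6 and 49.97 TPM (-2.17 ± 0.20, adjusted p = 5.11e-09). These 3 enzymes fell in every library, as did Dhcr7, the last reductase of the pathway, from 24.3, 23 and 21.9 to 11.5, 11.4 and 11.4 TPM (-0.95 ± 0.10, adjusted p = 2.18e-08). Cyp46a1 had 7.82, 6.02 and 5.69 TPM (-1.48 ± 0.11, adjusted p = 2.39e-10). Insig1 had 46.6, 47.8 and 49.8 TPM (-1.07 ± 0.10, adjusted p = 2.54e-09). All 6 were apart from the untreated libraries. Srebf2 fell to 54, 57.1 and 57.4 TPM (-0.69 ± 0.07, adjusted p = 2.61e-08) and Scap to 73.8, 68.7 and 71.5 TPM (-0.35 ± 0.08, adjusted p = 0.00102, lost with median-ratio scaling at 0.0547). Insig2, at 67.5, 56.3 and 51.5 TPM, did not pass the test (0.19 ± 0.16, adjusted p = 0.308).

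Among the other sterol genes, 2 of 7 regulation genes rose and 3 fell with palmitic acid in wild type, 7 of 12 handling genes rose and 1 fell, and 5 of 8 isoprenoid users rose and 1 fell. Of all genes, 26.8% rose and 33.1% fell (59.8% in all). All 10 astrocyte markers fell, to a sum of 745 to 902 TPM, as did 8 of 9 fibroblast and mural markers (3253 to 3606 TPM), whereas 9 of 12 microglia markers rose (1049 to 1197 TPM). Ddx3y stood at 3.22 to 4.49 against 14.9 to 19.1 TPM untreated, Xist at 15.5 to 20.97 against 30.7 to 36.8 TPM, and the mitochondrial share at 3.48% to 4.17% against 5.52% to 6.83%. The part of these signals in the result was not tested.

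The 2 fatty acids differed from each other in 20 of the 30 genes in wild type, 15 higher with oleic acid and 5 lower (32.4% and 25.8% of all genes, 58.2% in all). Acat2 had 50.1, 47.6 and 45.2 TPM with oleic against 16.4, 14.7 and 17.3 TPM with palmitic acid (1.51 ± 0.06, adjusted p = 1.9e-14). Cyp46a1 had 18.6, 22.2 and 20.7 against 7.82, 6.02 and 5.69 TPM (1.53 ± 0.11, adjusted p = 1.88e-10). Dhcr7 had 24.9, 29.5 and 25.7 against 11.5, 11.4 and 11.4 TPM (1.15 ± 0.10, adjusted p = 1.3e-09). For these 3 genes, and for Ebp (76, 85.1 and 78.6 against 33.5, 31.4 and 40.4 TPM, 1.17 ± 0.10, adjusted p = 1.21e-09), all oleic acid libraries lay above all palmitic acid libraries. Sqle differed by 0.88 ± 0.06 (adjusted p = 7.32e-11), Scap by 0.94 ± 0.08 (adjusted p = 2.71e-09), Srebf2 by 0.72 ± 0.07 (adjusted p = 1.56e-08) and Insig1 by 0.82 ± 0.10 (adjusted p = 1.89e-07), all higher with oleic acid in the values given above. Insig2 did not pass (0.36 ± 0.16, adjusted p = 0.0564), and neither did Hmgcs1 (0.42 ± 0.20, adjusted p = 0.0782). The sources used here give no dose or time for either acid, so the comparison is of these libraries as they were treated. Outside the 30 genes, Mbtps1, a protease that cuts SREBP free, was higher with oleic than palmitic acid by 1.02 log2 and Soat2, a second cholesterol esterifying enzyme, was lower, at -2.13.

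In knock out astrocytes with palmitic acid most of the pathway was higher, not lower as in wild type. Of the 30 genes, 22 rose, 3 fell and 5 did not pass, while 55.4% of all genes fell and 19.9% rose (75.3% in all). All 11 genes from squalene to cholesterol rose, with 5 of 8 mevalonate genes, Srebf2, Insig1, Soat1, Tmem97, Nr1h2 and Nr1h3, the gene of LXR alpha. Cyp46a1, Mylip and Ggps1 fell, and Hmgcs1, Idi1, Scap, Insig2 and Stard4 did not pass. The 19 enzymes summed to 1790 to 1879 TPM, of which Fdps alone gave 809, 619.5 and 691 TPM. Without Fdps the other 18 summed to 1070.04 to 1170.1 TPM, overlapping the 1068 to 1119 TPM of untreated wild type, and above the 511 to 527 TPM of the untreated knock out. The median of the 30 genes was 0.88 log2 against -0.47 for all genes. Median-ratio scaling shifted both upward, to 1.43 and -0.08, with 24 of the 30 higher and 2 lower.

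Fdps had 809, 619.5 and 691 TPM with palmitic acid against 65.4, 64 and 65.9 TPM in the untreated knock out (3.41 ± 0.11, adjusted p = 8.75e-17). Mvd had 121, 93.3 and 108 against 13.5, 12.4 and 15.8 TPM (2.87 ± 0.10, adjusted p = 3e-16). Pmvk had 89, 75.9 and 86.3 against 31.2, 30.1 and 29.9 TPM (1.43 ± 0.06, adjusted p = 1.99e-14). These neighbouring steps, from phosphomevalonate to farnesyl diphosphate, rose in every library, whereas Idi1, which acts between Mvd and Fdps, had 6.4, 26.8 and 20.2 against 19.8, 19 and 18.8 TPM and did not pass (-0.31 ± 0.30, adjusted p = 0.358). Hmgcs1 had 26.3, 65.6 and 51.4 TPM, spread widely around the untreated level (-0.32 ± 0.20, adjusted p = 0.157). In both genes library 1 was the lowest. Transcript GC content was 41.9% for Idi1 and 43.1% for Hmgcs1, against 50.6% for Fdps, 57.0% for Pmvk and 59.0% for Mvd. Spearman's rho between this palmitic acid log2 fold change and GC content was 0.45 over all genes and 0.305 over the 30. The part of base composition in this contrast was not tested.

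Fdft1, at the entry to the squalene branch, had 113, 104 and 105 against 27.2, 25.4 and 26.5 TPM (1.99 ± 0.07, adjusted p = 2.82e-16). Lss, which closes the sterol rings, had 44.3, 49.8 and 44.1 against 8.45, 8.02 and 10.5 TPM (2.24 ± 0.10, adjusted p = 2.58e-14). Insig1 had 156, 233 and 206 against 47, 45.7 and 43.2 TPM (2.09 ± 0.10, adjusted p = 2.34e-14). All 3 were several times their untreated level in each library. Srebf2 rose to 122, 117 and 123 TPM from 63.5, 61.8 and 63.4 TPM (0.93 ± 0.07, adjusted p = 1.48e-10). Scap had 71, 60.7 and 66.1 TPM and did not pass (-0.06 ± 0.08, adjusted p = 0.518), but was higher with median-ratio scaling (0.49, adjusted p = 0.000847). Insig2 had 51.2, 83.4 and 54.4 TPM, at -0.34 ± 0.16 (adjusted p = 0.0592), and stood at 0.21 with median-ratio scaling (adjusted p = 0.152).

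The palmitic acid change differed between genotypes in 28 of the 30 genes by limma's interaction term, 24 with a higher and 4 with a lower change in the knock out (14.3% and 43.2% of all genes, 57.6% in all). The difference in log2 change was 3.16 ± 0.13 for Insig1, 3.08 ± 0.16 for Fdps, 3.01 ± 0.14 for Mvd, 2.30 ± 0.10 for Fdft1, 2.10 ± 0.09 for Acat2, 2.06 ± 0.09 for Sqle and 1.62 ± 0.10 for Srebf2 (adjusted p at most 1.78e-11 in these 7). With median-ratio scaling the count was 26 higher and 1 lower, and the lower calls of Insig2, Ggps1 and Cyp46a1 were lost. Spearman's rho between this difference and transcript GC content was 0.383 over all genes and 0.0136 over the 30. Leaving out 1 library of the 4 groups gave 22 to 24 higher and 1 to 4 lower. The lower count was 1 without wild-type untreated 2, knock out untreated 1, wild-type palmitic 1 or knock out palmitic 1, and 2 without wild-type untreated 1, knock out untreated 3 or wild-type palmitic 2.

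**Figure D4:**
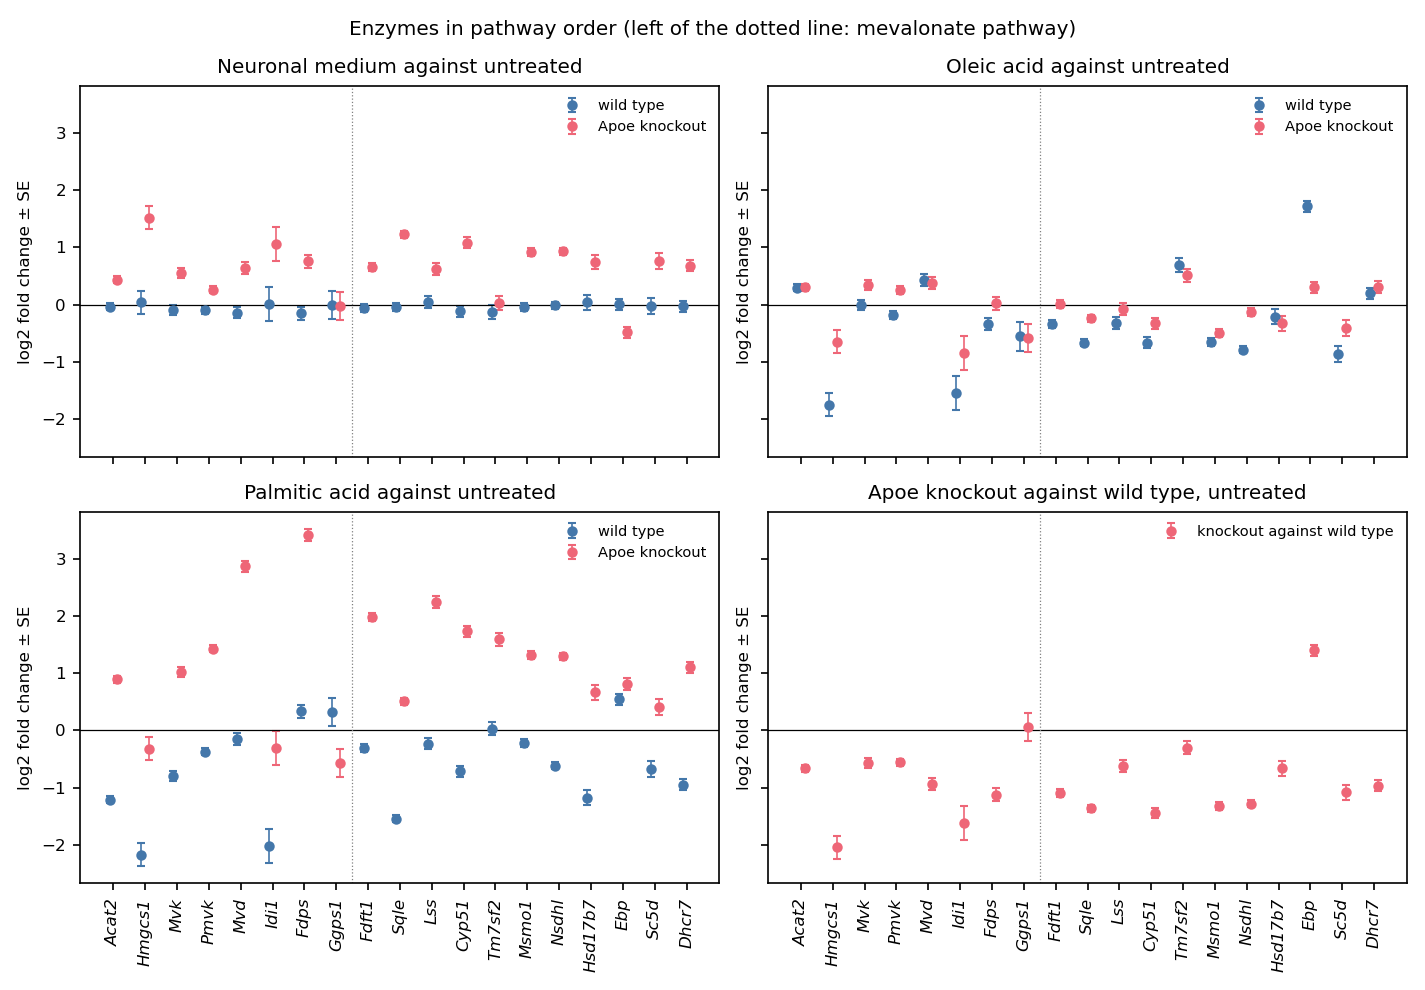
Log2 fold change ± SE (vertical axis) of 19 synthesis enzymes in pathway order (horizontal axis) for neuronal medium, oleic acid and palmitic acid against untreated in wild-type (blue) and APOE knock out (red) astrocytes, and for untreated knock out against wild type. With palmitic acid the knock out lies above wild type for all enzymes except Ggps1, and Fdps reaches 3.41.

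The knock out libraries with palmitic acid also stood apart in other ways. Their mitochondrial share was 1.51% to 2.94%, and 12057 to 12915 genes reached 1 TPM. Ddx3y stood at 1.86 to 15.7 TPM, lowest in library 1, against 31.31 to 33.46 TPM in the untreated knock out. Xist stood at 0 to 0.05 TPM, against 2.79 to 3.81 TPM in the untreated knock out. All 10 astrocyte, 12 microglia and 9 fibroblast and mural markers were lower than in the untreated knock out, with sums of 104 to 122, 111 to 123 and 939 to 1058 TPM. Each of these marker sums was the lowest of the 9 groups. The part of cell type signals and sex in the result was not tested. Without knock out palmitic acid 1 the count of the 30 genes was 23 higher and 2 lower, and without knock out palmitic acid 2 it was 21 higher and 6 lower. In the knock out with palmitic acid 19.9% of all genes rose and 55.4% fell (75.3% in all). Beside these shares, 2 of 7 other regulation genes rose and 3 fell, 5 of 12 handling genes rose and 3 fell, and 3 of 8 isoprenoid users rose and 4 fell. Among them, Soat2 rose from 0.26 to 5.2 TPM in the knock out and from 0.05 to 3.68 TPM in wild type, Erlin2 was lower in both, at -1.57 and -1.32 log2, Npc2 rose by 1.08 in the knock out and Srebf1 was lower in wild type, at -0.93.

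**Figure D5:**
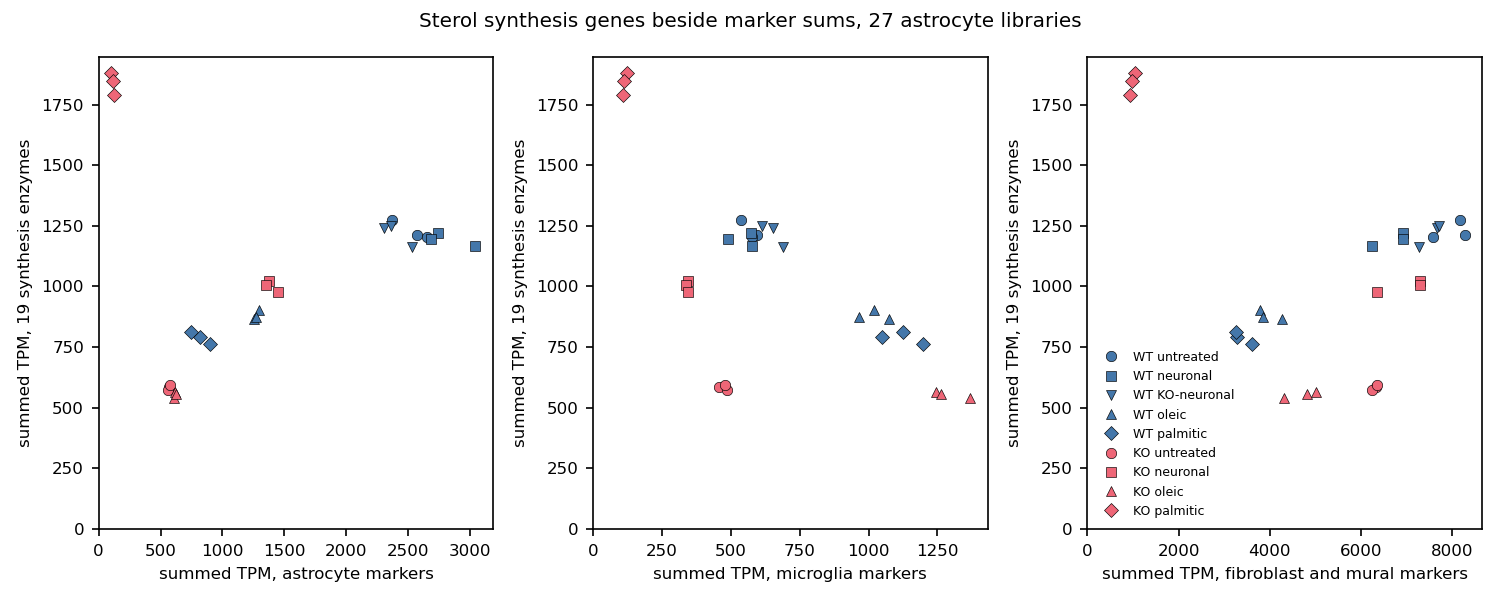
Summed TPM of 19 synthesis enzymes (vertical axis, from 0) against the summed TPM of astrocyte, microglia, or fibroblast and mural markers (horizontal axes, from 0) in 27 astrocyte libraries; each point is a library, blue for wild type and red for APOE knock out, with a symbol for each treatment. Knock out libraries with palmitic acid have the highest enzyme sums (1790 to 1879 TPM, of which Fdps makes up 619.5 to 809) and the lowest marker sums, and untreated knock out libraries have low sums of both enzymes and astrocyte markers.

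In the GENCODE M21 annotation of mm10, Hmgcs1 lies at chr13:119690379-119708260 (plus strand), Fdps at chr3:89093588-89101959 (minus strand), Sqle at chr15:59315077-59331192 (plus strand), Insig1 at chr5:28071363-28078662 (plus strand), Srebf2 at chr15:82147181-82205379 (plus strand) and Ebp at chrX:8185329-8193512 (minus strand). In the same annotation 14 of the 30 genes overlap another gene, among them Fdft1 with Ctsb, Cyp51 with Akap9, Tm7sf2 with Vps51, Ggps1 with Arid4b and Fdps with Gm43738, and the sources used here do not say whether counting used strand, so their values may hold reads of the neighbour.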

How the data were processed

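Brain tissue and cultured astrocytes were profiled by RNA-seq with TruSeq libraries from 1 ug of RNA, per the labels' protocols. HISAT2, StringTie, RSEM and mm10 are named, without roles, per the submitters' processing notes. The authors deposited TPM per gene for the astrocytes, the CNO set and the earlier KA cohort, and whole-number counts beside TPM for the later one. Genes reaching 1 TPM in 3 or more libraries were tested on log2(TPM + 1) with limma 3.58.1 (R 4.3.3) and a mean-variance trend. The counts as deposited went into the quasi-likelihood test of edgeR 4.0.16, normalized by TMM after edgeR's default filter. All 9 astrocyte groups, and all 4 groups of the second cohort, shared a fit. P-values were adjusted by Benjamini-Hochberg over all genes of a comparison, and 0.05 was the threshold. Tables were tabulated with Python 3.11.15 and pandas 2.3.3, and the tests were tested on simulated data.

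The 30 genes, the other pathway lists and the markers were chosen with earlier results of these data known. Values in every library are given for up to 6 called genes with the smallest p per comparison, or 3 where none was called, and for Srebf2, Scap, Insig1 and Insig2, besides Hmgcs1, Idi1 and Stard4 where added after their values were seen. Up to 3 called genes of the other lists are named per comparison. Replicate numbers pair only the CNO set, where deviations of same-numbered libraries correlated at 0.119 to 0.244, each highest with its own number. Alternatives were a replicate block, median-ratio scaling or size factors, a pseudocount of 0.1, no filter, DESeq2 1.42.0, a fit of only the groups compared and leaving out each library, with removal of length and GC trends added after seeing the data. Some genes of the pathway are not reported here.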

Additional observations from a re-analysis of the deposited data

Results flagged for a closer look

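The genes below changed differently with a treatment in APOE knock out than in wild-type astrocytes, by limma's interaction term at an adjusted p under 0.05, and are given as the log2 change in the knock out minus that in wild type. Of all genes tested, the term called 18.5% with neuronal medium, 29.6% with oleic acid and 57.6% with palmitic acid. With oleic acid the share of the 30 genes called was near that of all genes. With neuronal medium the difference was 1.27 for Sqle, 1.20 for Cyp51, 0.97 for Msmo1, 0.97 for Insig1, 0.94 for Nsdhl, 0.71 for Fdft1, 0.42 for Srebf2 and 0.39 for Scap. All 8 went with a rise in the knock out and no called change in wild type, and with median-ratio scaling the differences of Srebf2 (adjusted p = 0.0514) and Scap (adjusted p = 0.14) were no longer past the test. With oleic acid it was -1.41 for Ebp, -0.90 for Insig2, 1.10 for Hmgcs1, 0.66 for Nsdhl, 0.44 for Pmvk and 0.43 for Sqle. With palmitic acid it was 3.16 for Insig1, 3.01 for Mvd, 2.30 for Fdft1, 2.10 for Acat2, 2.06 for Sqle, 1.91 for Nsdhl, 1.62 for Srebf2, 0.29 for Scap and -0.54 for Insig2. Insig2 with palmitic acid did not pass under 13 alternatives, from -0.56 to -0.06 (adjusted p 0.0614 to 0.807), and Scap under 9, from 0.22 to 0.29 (adjusted p 0.0592 to 0.125). In 6 of these 9 genes, namely Insig1, Fdft1, Acat2, Sqle, Nsdhl and Srebf2, palmitic acid lowered the gene in wild type and raised it in the knock out, both past the test, except that the fall of Fdft1 in wild type was lost with median-ratio scaling (-0.23, adjusted p = 0.0788). Marker sums of astrocytes, microglia, fibroblasts and choroid plexus, and sex-linked transcripts, differed between genotypes and between treatments. Their part in these differences was not tested.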

How the results depend on the processing

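Over 219 alternative values of the 17 counts of called genes, 212 stayed within 1.5 times the reported count and 7 moved. In the CNO model the count of 4 was 0 with no filter on low values (16 genes at an unadjusted p under 0.05 by limma, against 11.4% of all genes), and 0 to 4 when a library was left out. With oleic acid on knock out astrocytes the count of 20 was 12 with length and GC trends removed, and the cause was not tested. With the replicate number as a block, the CNO count was 6, that of untreated knock out against wild type 24 and that of the palmitic acid interaction 26, and the other counts did not move; no paired analysis was possible for A2aR knock down because its groups share only 1 number. Of 1352 alternative values of 102 named fold changes, 0 reversed and 59 were no longer past the threshold. These were 27 in the CNO model, 22 in the palmitic acid interaction (Insig2 13 and Scap 9), 5 in the neuronal medium interaction (Scap 4 and Srebf2 1), 3 for Insig1 with oleic acid, 1 for Scap with palmitic acid and 1 for Mvk with oleic acid in the knock out. With a library left out, the counts ranged over 20 to 23 for oleic and 22 to 23 for palmitic acid in wild type, 14 to 18 and 23 to 27 in the knock out. Depth is unknown for the TPM tables, so the limit it sets on low genes such as Mylip and Nr1h3 could not be computed.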
